A study of Mus musculus with 6 samples.

Results

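Matrix glycoproteins and matrix-binding proteins were followed in mouse bone marrow derived macrophages, as 10 genes chosen by name: Fn1, Spp1, Tgfbi, Thbs1, Sparc, Dcn, Postn, Col5a1, Vcan and Lgals3. Each was sought among the platform gene symbols of 28941 probe sets, shared probe sets included. Single-gene probe sets were found for 9 of the 10 genes, 1 each. Spp1, which encodes osteopontin, is not analysed here. The table names 19938 genes on probe sets of their own. Marrow of C57BL/6 mice was induced with CSF2 (GM-CSF), giving M(CSF2) cells, or with CSF1 (M-CSF), giving M(CSF1) cells. The labels give 7 days to obtain either, under an age tag, which was read as time in culture, and the sorted cells went into Trizol within hours. RNA was hybridised to Affymetrix Mouse Gene 1.0 ST arrays, 3 for M(CSF2) and 3 for M(CSF1). The labels call the arrays of a group biological replicates and do not say whether they came from separate mice, so a p-value here covers the variation among these 6 arrays, and some of that may be technical. Neither an uncultured nor an uninduced group is part of the comparison, so every difference is between the cells of these inducers.

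The extracellular matrix is a network of collagens, glycoproteins and proteoglycans that cells grip through integrins and syndecans. Macrophages are best known for degrading and clearing matrix, but they also secrete fibronectin, TGF-beta-induced protein, thrombospondin-1 and osteopontin during wound repair and in tumours. Matricellular proteins such as thrombospondin-1, SPARC and periostin sit in the matrix and modulate adhesion and growth factor access rather than bear load, and many genes of this kind respond to TGF-beta.

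M(CSF2) cells had far more RNA of the adhesive glycoprotein fibronectin (Fn1), the matricellular protein thrombospondin-1 (Thbs1), the small proteoglycan decorin (Dcn), the lectin galectin-3 (Lgals3) and TGF-beta-induced protein (Tgfbi). M(CSF1) cells had more of periostin (Postn). A collagen V chain (Col5a1) and the large proteoglycan versican (Vcan) were slightly higher in M(CSF2), and Sparc did not pass the test. Of the 9 genes measured, 7 were called higher and 1 lower in M(CSF2) at a limma adjusted p under 0.05 over all probe sets. Over all probe sets 24.7% were called, 10.3% higher and 14.4% lower. When only the 14471 probe sets at or above the median signal were tested, 7204 were called, 2918 higher and 4286 lower. The 7204 held all of the 9 genes but Sparc. At least 2-fold differences were called for 5 of the 9 genes upward and 1 downward, against 2.87% and 3.72% of all probe sets. The median difference, M(CSF2) minus M(CSF1), was 1.91 on the log2 scale for the 9 genes and 0.03 over all probe sets. The genes were chosen with earlier results of these arrays known, so these shares describe the choice as well as the cells.

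**Figure D1:**
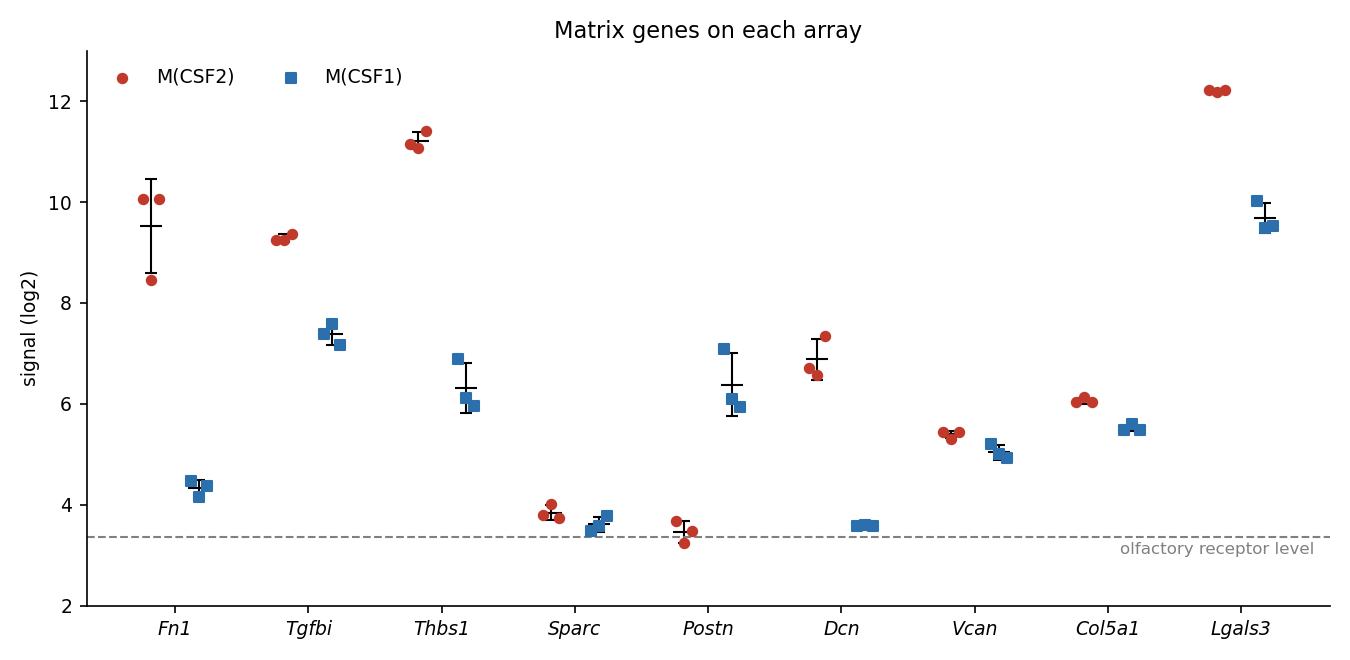
Signal (log2) of the 9 matrix genes on each array, M(CSF2) as red circles and M(CSF1) as blue squares, with the mean and SD of 3 arrays; the dashed line is the olfactory receptor level of 3.36. The groups stand apart for 8 genes, Postn is the gene that is lower in M(CSF2), and the arrays of the groups mingle for Sparc.

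Promoters of 7 of the 10 genes, all but Fn1, Thbs1 and Dcn, were matched by symbol in RefSeq sequence of GRCm38.p6. The 250 bases before the start are shown for Tgfbi and Lgals3, which were both higher in M(CSF2), and for the Postn start with a TATA box, since Postn differed the other way. Capitals mark matches, on either strand, to any of 6 motifs. For the inflammatory factor AP-1 the letters were TGANTCA. For STAT factors, which act below the CSF2 receptor, they were TTCNNNGAA. For the myeloid factor PU.1 they were GAGGAA, and for SMAD factors, which act below TGF-beta receptors, CAGACA. The TATA box was searched as TATAAA and the GC box bound by Sp1 as GGGCGG.
Tgfbi (chr13:56609336-56609585, plus strand): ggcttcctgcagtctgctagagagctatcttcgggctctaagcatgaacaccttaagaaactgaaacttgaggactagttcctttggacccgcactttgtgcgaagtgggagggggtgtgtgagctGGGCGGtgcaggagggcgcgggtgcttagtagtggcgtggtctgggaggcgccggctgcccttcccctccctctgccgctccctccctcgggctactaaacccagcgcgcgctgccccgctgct
Lgals3 (chr14:47373610-47373859, plus strand): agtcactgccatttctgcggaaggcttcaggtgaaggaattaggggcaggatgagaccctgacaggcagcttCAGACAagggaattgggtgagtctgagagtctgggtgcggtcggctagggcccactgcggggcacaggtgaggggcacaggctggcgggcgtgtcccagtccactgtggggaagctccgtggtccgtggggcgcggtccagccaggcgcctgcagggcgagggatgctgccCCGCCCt
Postn (chr3:54360857-54361106, plus strand): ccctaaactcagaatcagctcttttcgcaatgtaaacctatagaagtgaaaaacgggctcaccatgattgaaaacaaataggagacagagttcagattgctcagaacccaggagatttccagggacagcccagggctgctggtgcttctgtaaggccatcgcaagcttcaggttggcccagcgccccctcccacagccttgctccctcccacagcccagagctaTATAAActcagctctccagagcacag
The Tgfbi window held 1 match, a GC box whose first base lies 124 bases before the start. The Lgals3 window held a SMAD match 178 bases and a GC box 7 bases before the start. The Postn window held 1 match, a TATA box 26 bases before the start, and the window of the other annotated Postn start held none. No match overlapped another. Among 32851 mouse promoters of the same length, 32.7% held the GC box letters, 17.1% the SMAD letters and 12.4% the TATA letters. AP-1, STAT and PU.1 letters, held by 6.75%, 7.02% and 23.3% of promoters, were not in these 3 windows. Of the other windows searched, PU.1 letters were in those of Col5a1 and of 1 Spp1 start. SMAD letters were in those of Col5a1, Sparc and the same Spp1 start, which also held TATA letters, and GC boxes in those of Col5a1 and Vcan. A match is a description of the letters, not of a bound site.

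Among the adhesive glycoproteins, Fn1 had the largest difference of the 9 genes. Fibronectin carries an integrin-binding RGD loop and is assembled into fibrils that other matrix proteins attach to. Fn1 gave 10.06, 8.46 and 10.07 in M(CSF2) replicates 1, 2 and 3, against 4.47, 4.16 and 4.38 in M(CSF1). All M(CSF2) arrays lay above all M(CSF1) arrays, with replicate 2 of M(CSF2) well below its group. The difference was 5.19 (SE 0.41), a 36.5-fold ratio with a 95% interval of 18.7 to 71.4 (adjusted p = 0.00011). Its size ranked 32 among all probe sets. The width of the interval goes with the M(CSF2) arrays, whose SD for Fn1 was 0.92, against 0.16 in M(CSF1). No other probe set of the 28941 had a larger SD across the M(CSF2) arrays. Without replicate 2 of M(CSF2) the difference was 5.72. These are bulk values, in which fewer cells of a type and less RNA per cell cannot be told apart.

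Tgfbi encodes a secreted protein of fasciclin domains that binds collagen and integrins, and periostin is its close relative. Tgfbi gave 9.25, 9.24 and 9.37 in M(CSF2), against 7.38, 7.58 and 7.17 in M(CSF1). The groups were separated by 1.66, and the M(CSF2) arrays lay closer together, with an SD of 0.08 in M(CSF2) against 0.20 in M(CSF1). The difference was 1.91 (SE 0.11, adjusted p = 2.6e-05), a 3.76-fold ratio with an interval of 3.14 to 4.5.

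The matricellular genes did not move together. Thbs1, whose product binds CD36 and CD47 and can activate latent TGF-beta, gave 11.16, 11.08 and 11.40 in M(CSF2), against 6.89, 6.11 and 5.95 in M(CSF1). The lowest M(CSF2) array lay 4.19 above the highest M(CSF1) array, the widest such gap of the 9 genes. The difference was 4.90 (SE 0.24, adjusted p = 1.2e-05), a 29.8-fold ratio with an interval of 20.2 to 43.9. Replicate 1 of M(CSF1) was the high array of its group, and without it the difference was 5.18.

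Postn, a fasciclin-domain protein known from fibroblasts, bone and wound matrix, gave 3.68, 3.24 and 3.48 in M(CSF2), against 7.09, 6.10 and 5.94 in M(CSF1). Every M(CSF1) array lay above every M(CSF2) array, by at least 2.26, and replicate 1 of M(CSF1) was again the high array. The M(CSF2) values surrounded the olfactory receptor level of 3.36, the 95th percentile of 1035 olfactory receptor probe sets, with 1 of 3 arrays at or below it. That level stands for genes these cells are not thought to use, since the table has no detection calls. Postn fell by 2.91 in M(CSF2) (SE 0.29, adjusted p = 0.00035). The ratio was 7.53-fold in favour of M(CSF1), with an interval of 4.67 to 12.1, and such a ratio can understate the difference where 1 group is this dim. Without replicate 1 of M(CSF1) the difference was -2.56.

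Sparc encodes osteonectin, a collagen-binding matricellular protein. It gave 3.79, 4.01 and 3.74 in M(CSF2), against 3.48, 3.57 and 3.78 in M(CSF1). The groups overlapped, and all 6 arrays lay close above the olfactory receptor level. The difference was 0.24, with an interval of -0.02 to 0.49 (adjusted p = 0.171), so a ratio up to 1.41-fold is within the error.

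**Figure D2:**
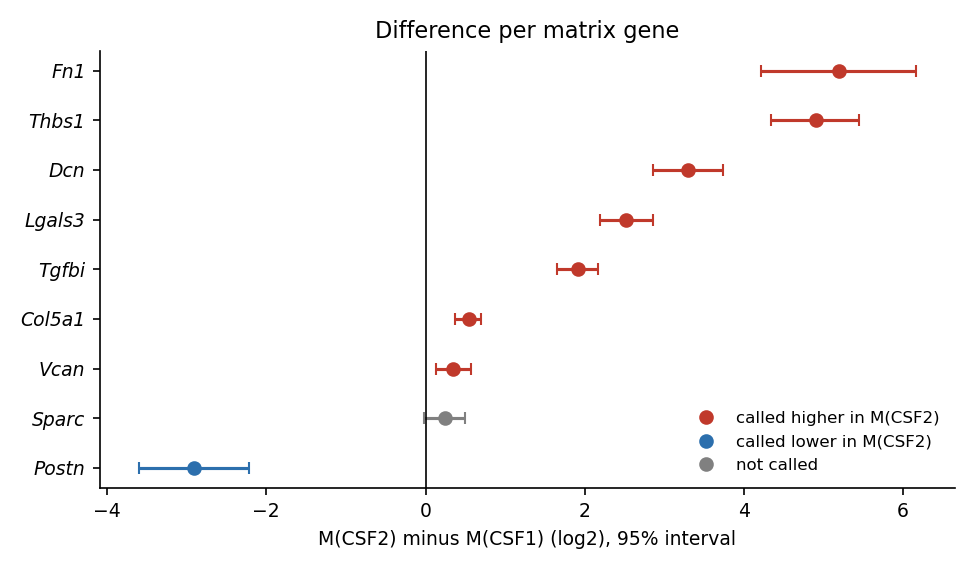
Difference in signal, M(CSF2) minus M(CSF1) (log2), with its 95% interval from the limma fit on 6 arrays; red, called higher in M(CSF2); blue, called lower in M(CSF2); grey, not called. Fn1 at 5.19 and Thbs1 at 4.90 stand at the top, Postn at -2.91 at the bottom, and the interval of Sparc spans 0.

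The proteoglycans differed in size of response. Dcn, a small leucine-rich proteoglycan that coats collagen fibrils and binds TGF-beta, gave 6.72, 6.58 and 7.34 in M(CSF2), against 3.57, 3.59 and 3.58 in M(CSF1). The M(CSF1) arrays were within 0.02 of each other, just above the olfactory receptor level, and the M(CSF2) arrays all lay at least 2.99 higher. The difference was 3.30 (SE 0.19, adjusted p = 2.3e-05), a 9.85-fold ratio with an interval of 7.28 to 13.3. As for Postn, such a ratio can understate the difference where 1 group is this dim. Vcan, a large hyaluronan-binding proteoglycan of provisional matrix, gave 5.44, 5.31 and 5.44 in M(CSF2), against 5.21, 5.00 and 4.92 in M(CSF1). The groups were separated by only 0.09. The difference was 0.35 (SE 0.09, adjusted p = 0.0308), a 1.28-fold ratio, and leaving out 1 array in turn kept the call 2 times of 6. The call ended without M(CSF1) replicate 2 (adjusted p = 0.116) or 3 (0.0828), and without M(CSF2) replicate 1 (0.109) or 3 (0.0953).

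Decorin is best known from fibroblasts, so markers of stroma and fibroblasts were read beside it. Of 15 such markers limma called 4 higher in M(CSF2) and none lower (6 higher and 0 lower at an unadjusted p under 0.05), and 11 were not called, with a median difference of 0.13. The called ones were the gelatinase Mmp2 (3.57), the calcium-binding S100a4 (1.65), which macrophages also express, the actin gene Acta2 (0.39, adjusted p = 0.0498) and Thy1 (0.34). The call of Acta2 ended without any array other than replicate 3 of M(CSF2), at adjusted p between 0.0738 and 0.169, and also with median centring (0.0506), an intensity trend (0.0588) or the replicate block (0.0711). Lepr, Cxcl12, Fap and Prrx1, which mark marrow stroma and fibroblasts, were at or below the olfactory receptor level on all 6 arrays. Col1a1 gave 5.07 ± 0.28 in M(CSF2) and 5.11 ± 0.11 in M(CSF1) (SD, n = 3 arrays each, adjusted p = 0.862), and its difference of -0.05 was 0.12 without replicate 1 of M(CSF2). Col1a2 gave 0.27 (interval 0.05 to 0.48, adjusted p = 0.0847) and Col3a1 gave 0.30 (interval 0.03 to 0.56, adjusted p = 0.109). Without replicate 3 of M(CSF1) both were called higher, at 0.35 (adjusted p = 0.0215) for Col1a2 and 0.39 (adjusted p = 0.0401) for Col3a1. Pdgfrb gave 0.13 (adjusted p = 0.405). Thy1, the 3 collagens and the markers at the olfactory receptor level were named after their values were seen. The summed linear signal of the 15 markers ran from 854 to 1128 in M(CSF2) and from 370 to 386 in M(CSF1), a sum over different probes in which bright ones weigh most. Without Mmp2 and S100a4 the other 13 summed to 279 to 303 in M(CSF2) and 240 to 260 in M(CSF1). Mmp2 and S100a4 had the largest rises of the 15 markers, so this split follows the values. The sums of the 13 still did not overlap between the groups. Lepr, Cxcl12, Fap and Prrx1 are among the 13, and such dim markers can move a linear sum only little. The part of the 15 markers in the rise of Dcn was not tested. Of the macrophage markers, all 8 lay above the olfactory receptor level in both groups, among them the lysozyme gene Lyz2, at 11.95 in M(CSF2) and 12.43 in M(CSF1), and Cd68, at 11.07 in M(CSF2) and 10.17 in M(CSF1). The integrin gene Itgam averaged 11.17 in M(CSF2) and 11.37 in M(CSF1) (adjusted p = 0.19). In that list 2 were called higher in M(CSF2), Cd68 and Csf1r (0.60), and 4 lower, led by Fcgr1 (-1.23), Adgre1 (-1.18) and Ptprc (-0.73), with a median of -0.43. Beside the stromal and macrophage counts at adjusted p, 10.3% of all probe sets were called higher and 14.4% lower. Of the 14471 at or above the median signal, 7204 were called, 2918 higher and 4286 lower. The share of all probe sets at an unadjusted p under 0.05 was not taken, so the unadjusted stromal counts cannot be judged against it.

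Col5a1 encodes a chain of collagen V, a minor fibrillar collagen that nucleates fibrils. It gave 6.03, 6.13 and 6.03 in M(CSF2), against 5.49, 5.61 and 5.48 in M(CSF1). The groups were apart by 0.41, with an SD of 0.06 in M(CSF2) and 0.07 in M(CSF1). The difference was 0.54 (SE 0.07, adjusted p = 0.0013), a 1.45-fold ratio. Of 14 other collagen genes, limma called none in either direction, with differences between -0.05 and 0.30 and a median of 0.14. At an unadjusted p under 0.05 there were 5 higher and 0 lower. The partner chains Col5a2 (0.14, adjusted p = 0.265) and Col5a3 (0.13, adjusted p = 0.257), named after their values were seen, were among the 14. Beside the collagen counts at adjusted p, 10.3% of all probe sets were called higher and 14.4% lower. The share of all probe sets at an unadjusted p under 0.05 was not taken, so the unadjusted collagen counts cannot be judged against it.

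Lgals3 encodes galectin-3, a secreted and intracellular lectin long used as the macrophage marker Mac-2. It gave 12.22, 12.19 and 12.22 in M(CSF2), against 10.03, 9.49 and 9.53 in M(CSF1). The M(CSF2) arrays spanned 0.03, the M(CSF1) arrays 0.54, and the groups were 2.16 apart. The difference was 2.52 (SE 0.14, adjusted p = 2.3e-05), a 5.75-fold ratio with an interval of 4.56 to 7.26. Of 7 other galectin genes limma called none higher (also 0 at an unadjusted p under 0.05) and 1 lower, with a median of -0.07. That gene was Lgals1, the galectin-1 gene, with 11.10 ± 0.15 in M(CSF2) and 11.83 ± 0.04 in M(CSF1) (adjusted p = 0.0009). Beside the galectin counts at adjusted p, 10.3% of all probe sets were called higher and 14.4% lower. Lgals3bp, whose product binds galectin-3, rose by 0.64 (adjusted p = 0.0083).

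All M(CSF2) arrays lay above all M(CSF1) arrays for 7 of the 9 genes, against 17.6% of all probe sets, and below them for 1, against 18.8%. Values of different genes come from different probes and were not set against each other as levels. By the distance between mean-centred values over the 6 arrays, the genes nearest to Fn1 among 21788 probe sets were the beta-glucan receptor Clec7a (1.03), the transferrin gene Trf (1.07) and the activating receptor Trem1 (1.14). Nearest to Postn were the ubiquitin ligase gene Ltn1 (0.34), Asb2 (0.46) and the eotaxin receptor Ccr3 (0.48). With 6 arrays in 2 groups, this distance mainly reflects the size of the group difference and how the arrays spread around it.

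**Figure D3:**
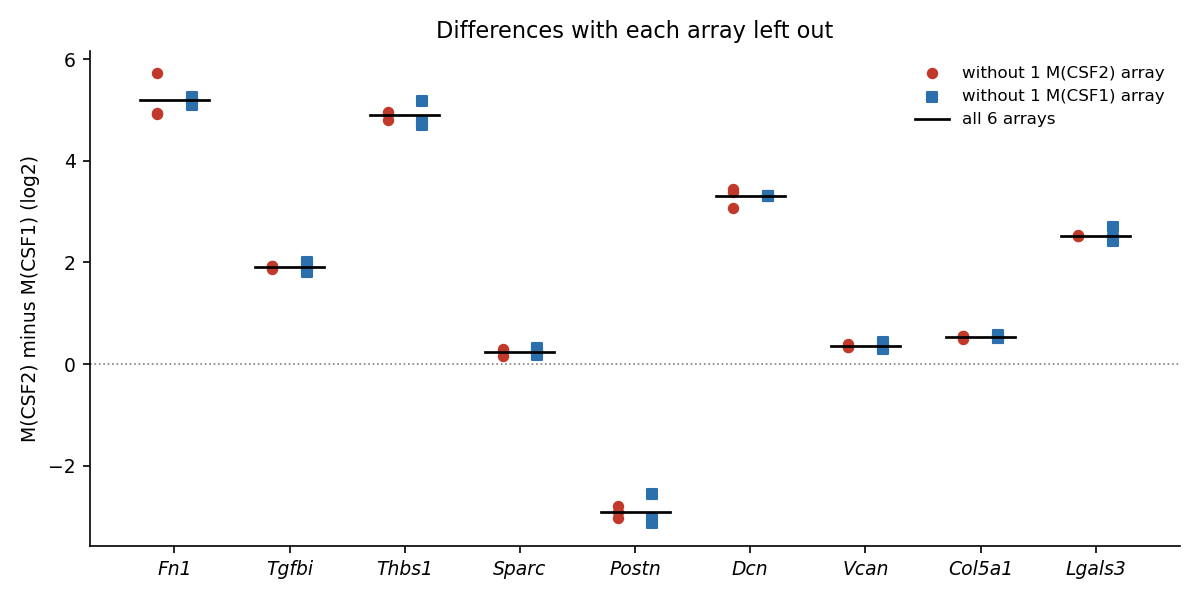
Difference, M(CSF2) minus M(CSF1) (log2), of each matrix gene with all 6 arrays (bar), with 1 M(CSF2) array left out (red circles) and with 1 M(CSF1) array left out (blue squares). Fn1 ran from 4.92 to 5.72 and Postn from -3.13 to -2.56, and no gene crossed 0.

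Other matrix genes were read from lists by role. Of 23 other glycoproteins measured, 8 were called higher in M(CSF2), 1 lower and 14 not, with a median of 0.19. Over all probe sets 10.3% were called higher and 14.4% lower. Of the 14471 probe sets at or above the median signal, 7204 were called, 2918 higher and 4286 lower. Mfge8, which bridges apoptotic cells to integrins, rose by 5.31, to 11.82 ± 0.11 in M(CSF2) against 6.51 ± 0.49 in M(CSF1) (adjusted p = 7e-06). The laminin chain gene Lamc1 rose by 1.28 and Ecm1 by 1.01. Emilin2, an elastic fibre-associated glycoprotein gene, fell by 0.61 (adjusted p = 0.0121). That call ended without replicate 1 (adjusted p = 0.0573) or replicate 2 (0.052) of M(CSF1). Of 12 other proteoglycan and hyaluronan genes, limma called 2 higher and none lower (1 at an unadjusted p under 0.05), with a median of 0.07. Srgn, the serglycin gene of leukocyte granules, rose by 2.36, to 12.18 ± 0.09 in M(CSF2) against 9.83 ± 0.32 in M(CSF1). The other, Fmod, averaged 3.23 in M(CSF2) and 2.89 in M(CSF1), both below the olfactory receptor level. Its call (adjusted p = 0.0316) ended without replicate 1 or 2 of M(CSF1) or replicate 2 or 3 of M(CSF2), at adjusted p between 0.0755 and 0.0966.

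Receptors and binding partners of these matrix proteins went both ways, with 3 of 18 called higher, 5 lower and 10 not, and a median of 0.04. After quantile normalization 6 were called higher and 6 lower. Among all probe sets the called shares were 10.3% higher and 14.4% lower. Of the 14471 at or above the median signal, 7204 were called, 2918 higher and 4286 lower. The integrin chains Itga4, a receptor for fibronectin and osteopontin, and Itga9, a receptor for osteopontin and tenascin, had the largest falls. Itga4 gave 4.98 ± 0.46 in M(CSF2) and 7.93 ± 0.21 in M(CSF1), a difference of -2.95 (adjusted p = 9.2e-05). Itga9 gave 4.83 ± 0.14 in M(CSF2) and 7.78 ± 0.11 in M(CSF1), a difference of -2.94 (adjusted p = 2.7e-06). Stab1, a receptor that takes up SPARC, fell by 1.61. The 2 falls outside the naming rule, read after their values were seen, were Sdc3 (-1.25) and Itgb1 (-0.43). The heparan sulfate syndecans were split, since Sdc1 (1.34) and Sdc4 (0.82) rose while Sdc3 fell. The classical fibronectin receptor chain Itga5 gave 0.15 (adjusted p = 0.333), the thrombospondin receptors Cd36 and Cd47 gave 0.32 (adjusted p = 0.0812) and -0.35 (adjusted p = 0.0542), and the osteopontin receptor Cd44 gave -0.16 (adjusted p = 0.276). These 4 were also named after their values were seen. Cd36 and Cd47 lay near the threshold: both were called after quantile normalization (0.0494 for Cd36 and 0.0469 for Cd47). Both were also called with the filter at the median signal (0.0429 for Cd36 and 0.0274 for Cd47). Cd36 was called without replicate 2 of M(CSF2) (0.0125). Cd47 was called after median centring (0.0411), with an intensity trend (0.0437), at gene level (0.0471) and without replicate 3 of M(CSF2) (0.0109). Each stayed uncalled in its other refits. The call of Itgb1 (adjusted p = 0.0347) ended without any 1 array of M(CSF1) or without replicate 1 of M(CSF2), at adjusted p between 0.0637 and 0.127.

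**Figure D4:**
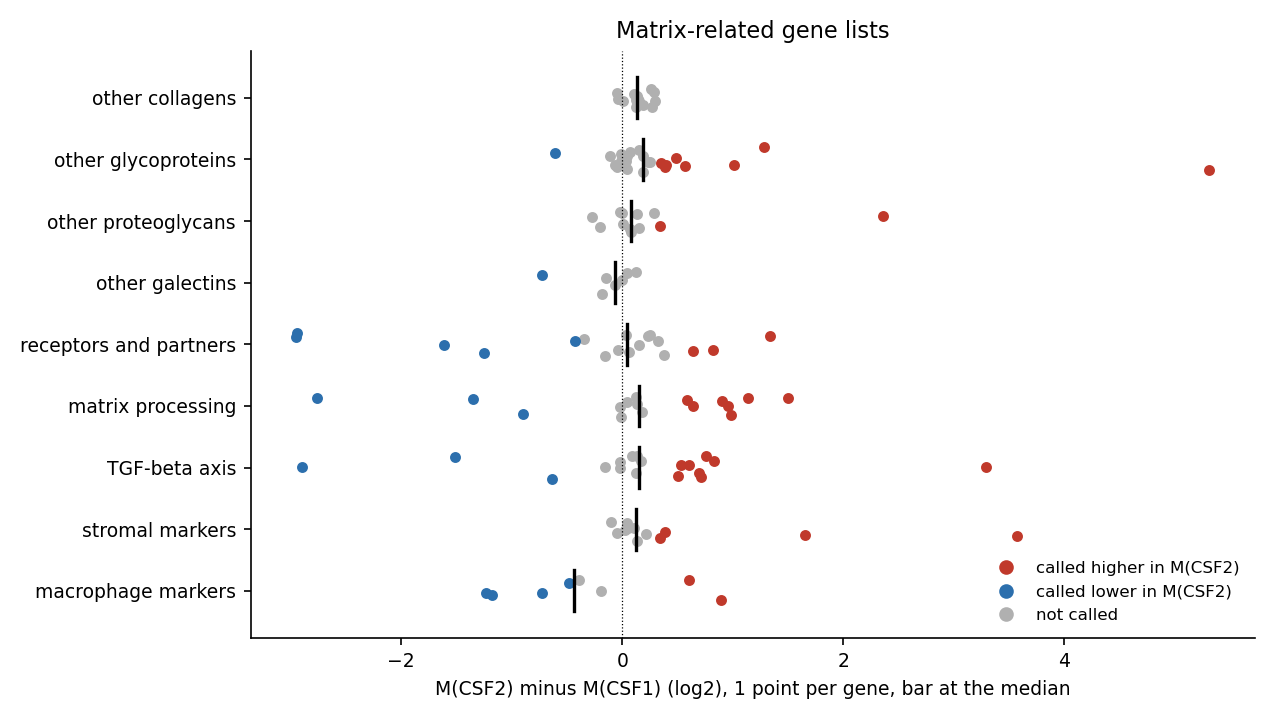
Difference per gene, M(CSF2) minus M(CSF1) (log2), in 9 lists of matrix-related genes and cell markers, the 9 matrix genes themselves left out; red, called higher in M(CSF2); blue, called lower in M(CSF2); grey, not called; bar, list median. The other collagens lie within -0.05 to 0.30, and the receptors, processing enzymes and TGF-beta axis have called genes on both sides.

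Enzymes that fold, cross-link and process matrix had 7 of 16 called higher, 3 lower and 6 not, with a median of 0.15. Among all probe sets the called shares were 10.3% higher and 14.4% lower. Of the 14471 at or above the median signal, 7204 were called, 2918 higher and 4286 lower. The transglutaminase Tgm2, which cross-links fibronectin, rose by 1.50, the prolyl hydroxylase subunit P4ha1 by 1.14 and the lysyl hydroxylase Plod3 by 0.98. Bmp1, the protease that trims procollagens and activates lysyl oxidase, averaged 5.15 ± 0.15 in M(CSF2) and 7.91 ± 0.30 in M(CSF1), a difference of -2.76 (adjusted p = 2.4e-05). The lysyl hydroxylase Plod1 fell by 1.35 and the lysyl oxidase Lox by 0.90.

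The TGF-beta axis, whose ligand induces several of these matrix genes in many cell types, had 8 of 18 called higher, 3 lower and 7 not, with a median of 0.15. Among all probe sets the called shares were 10.3% higher and 14.4% lower. Of the 14471 at or above the median signal, 7204 were called, 2918 higher and 4286 lower. Lrrc32, which encodes GARP, a cell-surface dock for latent TGF-beta, averaged 7.07 ± 0.15 in M(CSF2) and 3.79 ± 0.17 in M(CSF1), a difference of 3.29 (adjusted p = 3.2e-06). The inhibitory Smad7 rose by 0.83 and the latency protein gene Ltbp3 by 0.76. The signal transducer Smad3 averaged 3.74 ± 0.23 in M(CSF2) and 6.64 ± 0.16 in M(CSF1), a difference of -2.90 (adjusted p = 9.9e-06). The receptor Tgfbr2 fell by 1.51 and Smad2 by 0.64. The ligand gene Tgfb1 (0.69, adjusted p = 0.0015) and the receptor gene Tgfbr1 (0.53, adjusted p = 0.0347) were called higher. Both were named after their values were seen, and Tgfbr1 was not called after median centring. All of these are RNA signals, and the amount or activity of TGF-beta protein was not measured.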

How the data were processed

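The authors deposited 1 column of log2 values per array, 28941 probe sets in all. The base is taken from the range of the values, 1.48 to 13.27. The submitters' processing notes name MAS5; background correction, normalization and summarisation are not given in the sources used here. Array means were 4.63 and medians 3.91 to 4.00. Arrays correlated at 0.995 to 0.997 within groups and 0.954 to 0.959 between them. The platform annotation gave 21789 probe sets 1 gene, 1621 several, and 5531 are unnamed here. Every probe set entered a limma fit (version 3.58.1, R 4.3.3, 2-sided, no filter) of M(CSF2) minus M(CSF1), with Benjamini-Hochberg adjustment over all of them, and called at adjusted p under 0.05. An adjusted p comes from this fit unless its sentence names an alternative. Shares of all probe sets called were taken at adjusted p only, so counts at an unadjusted p have no such share beside them. The procedure was tested on simulated data, with independent arrays and far fewer changed probe sets than were called here. That test does not show how many of the calls here are true. Precision is limited by the number of arrays.

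Each gene of the 9 lists was read from its brightest single-gene probe set, and 128 of 133 genes had one. The naming rule took all members, up to 3 called genes per list and direction, the 4 brightest cell markers and, for likeness, the 3 nearest genes; genes outside it are marked in the text. Members and lists were chosen with earlier results of these data known. The olfactory receptor level and the motifs were chosen after the data were examined. Alternatives were quantile normalization, median centring, a filter at the median signal, an intensity trend, robust variance, 1 probe set per gene, a replicate block, and fits without 1 array.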

Additional observations from a re-analysis of the deposited data

How the results depend on the processing

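Over all probe sets 7139 were called, and between 5484 and 7579 under the alternatives run over the whole table. At gene level 5488 of 19938 genes were called, and 7204 of 14471 probe sets after the filter on dim ones. Of 116 refits of the matrix genes, 111 kept their direction and side of the threshold. The 5 exceptions were all Vcan, with 0.31 (adjusted p = 0.0797) after centring array medians and between 0.29 and 0.44 over the fits without 1 array. Direction was kept in every refit of the matrix genes. There were 622 refits for most of the named list genes, Tgfb1 and Tgfbr1 not included. Of these, 18 lost the call, for Emilin2, Fmod, Acta2 and Itgb1, and 11 gained one, for Cd36, Cd47, Col1a2 and Col3a1. Col1a1, not called, changed sign in 1 refit: without 1 array it ran from -0.15 to 0.12, highest without replicate 1 of M(CSF2). Sparc was left out by the filter on dim probe sets. Same-numbered arrays did not deviate together (correlations of -0.009, -0.031 and -0.244), so the numbers were not taken as pairs. With the replicate block 6407 probe sets and 8 of the 9 matrix genes were called, Vcan at adjusted p = 0.046. Scaling moved the median difference of all probe sets from 0.03 to 0.01 (quantile) or -0.01 (median centring). Collagen counts did not change with scaling, and the receptor list, which moved most, had 3 higher and 6 lower after median centring. The lists together had 51 called genes, and 41 to 56 under the alternatives. The table has no signal over background, so dim genes are limited by the olfactory receptor level alone.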

Other observations

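The order of the arrays within each group was read over the matrix genes. Replicate 2 of M(CSF2) was the lowest of its group for 7 of the 9 genes, against 32.6% of all probe sets, and replicate 3 was the highest for 6, against 28.9%. For some of these genes replicate 3 barely exceeded replicate 1: Fn1 (10.07 against 10.06), Vcan (5.44 for both) and Lgals3 (12.22 for both). Replicate 2 in turn was barely below replicate 1 for Tgfbi (9.24 against 9.25) and Lgals3 (12.19 against 12.22). Replicate 1 of M(CSF1) was the highest of its group for 5 of the 9 genes, against 36.7% of all probe sets. With only 9 genes, that count is not far from the share. Thbs1 and Postn, which differ in opposite directions between the groups, were both widely spread across the M(CSF1) arrays, where 80 and 20 of 28941 probe sets had a larger SD. In M(CSF2) the widest spreads were those of Fn1, with no probe set above it, and Dcn, with 257. Lgals3 was among the tightest in M(CSF2), where 27278 probe sets had a larger SD, and among the wider ones in M(CSF1), where 983 did. The cause of these spreads was not tested.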
